A study of Mus musculus with 6 samples.

Results

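The 10 genes described here encode the subunits of the transcription factor NF-kB and proteins grouped here as its inhibitors. The subunit genes are Nfkb1, Nfkb2, Rela, Relb and Rel, and the inhibitor genes are Nfkbia, Nfkbib, Nfkbie, Nfkbiz and Tnfaip3. Of the latter, Nfkbiz encodes a protein that acts as a cofactor on some NF-kB targets. The genes were chosen by symbol and not by their values, though earlier results of these data were known. All 10 were found among the 32544 genes of the deposited table. The table holds RNA levels in proximal tubules of C57Bl/6 mice, described by the submitters as control mice, 24 h after a single injection. AA mice received aristolochic acid I, a plant nephrotoxin that forms adducts on DNA. DMSO mice received dimethyl sulfoxide, and 3 mg/kg is stated for both. Segments S2 and S3, which follow the first stretch of the proximal tubule, were isolated by hand and several tubules per kidney were pooled, so that fewer cells of a type and less RNA per cell cannot be told apart. There were 3 libraries per group, here AA replicates 1 to 3 and DMSO replicates 1 to 3. The sex and age of the mice are not stated in the sources used here. No label ties the libraries to separate mice, and p-values therefore measure only the spread among these libraries, which may be technical.

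Depth ran from 13304877 to 31136251 reads, and levels are given in CPM (reads per 1000000 reads of the library, with no correction for gene length). Of all genes, 14311 reached 1 CPM in at least 3 libraries. These were tested by limma on log2(CPM + 1), and a gene was called at a Benjamini-Hochberg adjusted p under 0.05 over all of them. The median log2 fold change of the tested genes was 0.21, so some changes are also given relative to it. DMSO replicates 1 and 2 lay apart from the other 4 libraries by more than 2 on the log2 scale for 40 tested genes, of which 0 were members. Among so few genes the absence of members says little. Only this split of the libraries was counted. A fit with a term for that split, in which DMSO replicate 3 is the only control, is called the library-set fit; that lone control is assumed to vary like the other libraries, from which its p-values take their spread. The tissue label was checked against 12 proximal tubule markers, and all were tested. In AA 6 were lower and 1 was higher, beside 8.66% lower and 22.3% higher among all tested genes. The sum of the markers was 21424 to 28805 CPM under DMSO and 11006 to 13714 CPM under AA.

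NF-kB is a dimer of subunits that share a DNA-binding domain. Rela, Relb and Rel carry a domain that activates transcription, whereas Nfkb1 and Nfkb2 encode precursors that are cut to p50 and p52. In the resting cell, inhibitor proteins keep the dimers in the cytoplasm. In the canonical route, receptors for tumour necrosis factor, interleukin 1 or microbial products switch on a kinase complex that marks the inhibitor for destruction. In the non-canonical route the kinase NIK drives the cutting of the Nfkb2 precursor, which frees dimers that contain Relb. Several inhibitor genes are themselves targets of NF-kB, which makes a feedback loop, and in the kidney the factor is known for the inflammatory genes of injured tubules.

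The sequences before the starts of these genes are shown because NF-kB binds a known motif, the kappaB consensus, and some members are among its own targets. RefSeq promoters of build GRCm38.p6 (mm10) were matched for 7 of the 10 genes: Nfkb2, Rela, Rel, Nfkbia, Nfkbib, Nfkbie and Tnfaip3. Promoters of Nfkb1, Relb and Nfkbiz are not shown. Each line holds the 250 bases before an annotated start, 5′ to 3′ on the gene's strand, with capitals for bases covered by a match to the consensus on either strand. The first 3 lines are from called genes with a match, Rel has a match and was not called, and Rela was called and has none.
Nfkb2, first of 3 annotated starts, chr19:46304487-46304736, plus strand: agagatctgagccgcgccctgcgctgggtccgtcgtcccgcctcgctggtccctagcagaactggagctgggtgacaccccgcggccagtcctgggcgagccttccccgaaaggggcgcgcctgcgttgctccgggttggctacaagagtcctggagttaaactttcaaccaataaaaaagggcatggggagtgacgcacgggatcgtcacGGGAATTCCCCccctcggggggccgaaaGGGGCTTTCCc
Nfkbia, chr12:55492648-55492897, minus strand: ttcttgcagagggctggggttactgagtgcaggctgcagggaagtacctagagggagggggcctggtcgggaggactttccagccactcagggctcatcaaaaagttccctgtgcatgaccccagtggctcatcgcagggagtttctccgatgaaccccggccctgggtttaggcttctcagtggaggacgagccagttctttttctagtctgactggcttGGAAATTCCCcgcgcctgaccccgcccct
Tnfaip3, first of 2 annotated starts, chr10:19015411-19015660, minus strand: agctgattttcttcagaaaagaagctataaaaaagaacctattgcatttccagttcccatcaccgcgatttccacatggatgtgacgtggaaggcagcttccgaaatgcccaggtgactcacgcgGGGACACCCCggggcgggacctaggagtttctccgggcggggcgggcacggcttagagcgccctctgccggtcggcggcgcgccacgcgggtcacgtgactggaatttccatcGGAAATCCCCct
Rel, chr11:23770970-23771219, minus strand: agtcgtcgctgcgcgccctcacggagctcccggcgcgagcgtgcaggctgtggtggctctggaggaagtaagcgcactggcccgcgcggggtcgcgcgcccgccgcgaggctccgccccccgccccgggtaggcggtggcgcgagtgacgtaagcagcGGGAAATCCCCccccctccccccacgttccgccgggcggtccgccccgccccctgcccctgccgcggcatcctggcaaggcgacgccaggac
Rela, chr19:5637291-5637540, plus strand: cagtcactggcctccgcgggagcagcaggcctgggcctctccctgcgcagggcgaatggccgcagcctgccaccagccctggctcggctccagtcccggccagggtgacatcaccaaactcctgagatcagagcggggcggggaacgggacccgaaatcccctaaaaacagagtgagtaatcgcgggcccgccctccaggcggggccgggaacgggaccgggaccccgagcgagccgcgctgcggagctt

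A match lay before at least 1 start of 5 of the 7 members (71.4%). Of all 32851 windows of this length in the RefSeq table, 7.25% held one, and so did those of 10.6% of the 10414 tested genes with a window. Counted on both strands, the printed Nfkb2 window had 4 matches in 2 stretches, from -39 to -29 and from -11 to -2, where -1 is the base next to the start. Its other starts had 1 match each. Nfkbia had GGGAATTTCC on the other strand from -29 to -20. Tnfaip3 had GGGGATTTCC on the other strand from -12 to -3 and another stretch, matched on both strands, from -125 to -116. Nfkbie had GGGGGATTCC from -106 to -97, and Rel had 1 stretch from -92 to -82. The windows of Rela, Nfkbib and the other Tnfaip3 start held no match, which says only that these letters are not in those windows. The consensus was chosen after these sequences had been seen, so the members' share beside that of all windows is a description and no test. No binding was measured.

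**Figure D1:**
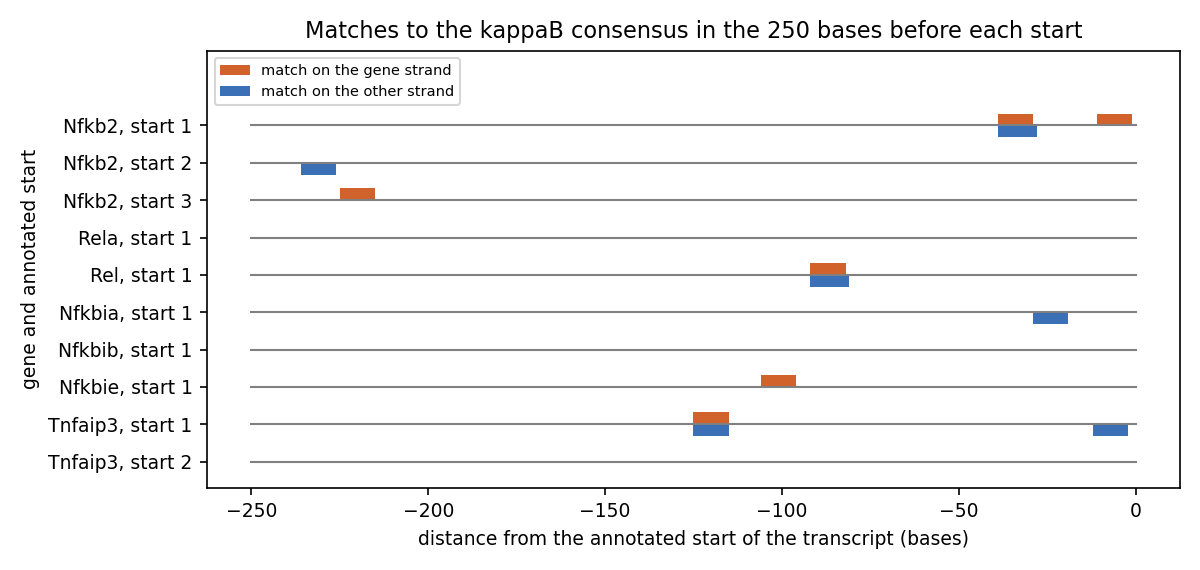
Each line is the 250 bases before an annotated start (x axis: distance from the start in bases), and each bar is a match to the kappaB consensus, above the line for the gene's strand and below it for the other strand. The first Nfkb2 start, Nfkbia and the first Tnfaip3 start each have a match between -39 and the start, the last also has matches from -125 to -116, and Rela and Nfkbib have none.

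Of the 10 genes, 9 rose in AA tubules, 0 fell and 1, Rel, did not pass, while 30.9% of all tested genes were called, 22.3% as higher and 8.66% as lower. Subunits made up 4 of the 9 and inhibitors 5. All 10 genes, Rel included, had every AA value above every DMSO value; of all tested genes, 46.4% had groups that did not overlap, 33.4% with AA higher. The median log2 fold change was 1.58 over the members, 1.42 over the subunits and 1.74 over the inhibitors, beside 0.21 for all tested genes. All 10 exceeded 1 CPM in each of the 6 libraries, so none entered the test through its AA values alone. Among the DMSO libraries, replicate 1 was lowest for 8 of the 10 genes, and among the AA libraries replicate 3 was highest for 8; the cause was not tested.

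**Figure D2:**
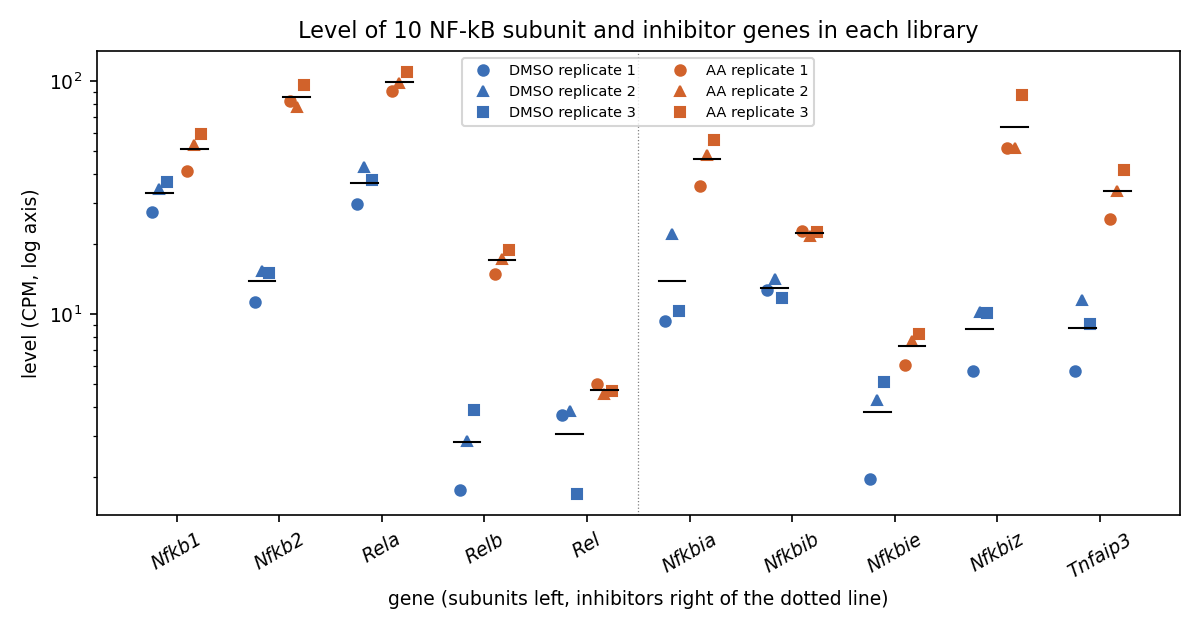
Level of each gene in each library, in CPM on a log axis, with DMSO in blue, AA in orange, a symbol for each replicate and a line at the group mean. For all 10 genes the AA points lie above the DMSO points, with wide gaps for Nfkb2, Relb and Nfkbiz and narrow ones for Rel, Nfkb1 and Nfkbie.

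The subunit genes with the largest fold changes were Nfkb2 and Relb, the pair of the non-canonical route. Nfkb2, which encodes the p100 precursor of p52, is on chromosome 19 (46304320 to 46312385, plus strand) in mm10 with GENCODE M21, used for all positions here. Its level was 11.3, 15.4 and 14.98 CPM in DMSO replicates 1 to 3 and 81.9, 77.4 and 96.2 CPM in AA replicates 1 to 3. The groups lay far apart. Means were 13.9 ± 2.27 and 85.2 ± 9.82 CPM (SD, n = 3 each), with log2 fold change 2.54 (SE 0.17, limma adjusted p = 6.56e-06), and 0.748% of tested genes had a larger one. Nfkb2 was called in all 18 alternative fits, with log2 fold changes from 2.26 to 2.62. Its last 299 bases overlap Psd on the opposite strand, a gene at 3.599 to 8.72 CPM, and the strand setting of the counting is not given in the sources used here.

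Relb encodes an activating subunit that pairs mainly with the Nfkb2 products, and is on chromosome 7 (19606217 to 19629438, minus strand). It measured 1.76, 2.86 and 3.89 CPM under DMSO and 14.9, 17.2 and 18.96 CPM under AA. The groups were far apart, although the DMSO values rest on 42 to 89 reads. Relb changed by 2.27 on the log2 scale (SE 0.26, limma adjusted p = 0.000155), a scale that understates changes of low genes, and by 1.88 in the library-set fit (adjusted p = 0.00561). All 18 alternatives called it.

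Rela encodes p65, the main activating subunit of the canonical route, and is on chromosome 19 (5637483 to 5648130, plus strand). It measured 29.8, 42.9 and 37.5 CPM under DMSO and 90.9, 98.0 and 109.7 CPM under AA, again with a wide gap between the groups. With means of 36.8 ± 6.57 and 99.5 ± 9.48 CPM, it rose by 1.42 on the log2 scale (SE 0.16, limma adjusted p = 0.000154), or 1.22 relative to all genes. All 18 alternatives called it.

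Nfkb1 encodes the p105 precursor of p50, the usual partner of p65, and is on chromosome 3 (135584655 to 135691547, minus strand). The DMSO libraries held 27.5, 34.5 and 36.97 CPM, and the AA libraries held 41.04, 53.2 and 59.5 CPM. The groups were separate but close, the highest DMSO and the lowest AA library being neighbours. Nfkb1 rose by 0.61 on the log2 scale (SE 0.18, limma adjusted p = 0.0252), or 0.41 relative to all genes. The call was lost in 9 of 18 alternatives, among them equalised library medians (log2 fold change 0.36, adjusted p = 0.122), the library-set fit (0.44, adjusted p = 0.289) and leaving out DMSO replicate 1 (adjusted p = 0.0837), AA replicate 2 (0.0847) or AA replicate 3 (0.103).

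Rel encodes c-Rel, a subunit known best from lymphocytes, and is on chromosome 11 (23736847 to 23770970, minus strand). It measured 3.68, 3.85 and 1.69 CPM under DMSO and 5.04, 4.55 and 4.67 CPM under AA. The AA values were near those of DMSO replicates 1 and 2, while DMSO replicate 3 was low, with 27 reads and an exact 95% binomial interval of 1.11 to 2.46 CPM that covers counting error only. The log2 fold change was 0.54 (SE 0.28, limma adjusted p = 0.162). Of 18 alternatives, 0 gave a call, with adjusted p from 0.0664 to 0.645.

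Among the inhibitors, Nfkbiz had the largest fold change. It encodes IkB-zeta, an atypical nuclear member of the IkB family that acts as a cofactor on some NF-kB targets, and is on chromosome 16 (55811375 to 55838899, minus strand). It measured 5.73, 10.2 and 10.1 CPM under DMSO and 51.6, 51.7 and 87.1 CPM under AA. AA replicate 3 was far above the other AA libraries, and all of these were far above DMSO. Nfkbiz rose by 2.73 on the log2 scale (SE 0.26, limma adjusted p = 5.61e-05), and 0.636% of tested genes had a larger change. All 18 alternatives called it.

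Tnfaip3 and Nfkbia, classic feedback genes of the canonical route, both rose. Tnfaip3 encodes A20, an enzyme that edits ubiquitin chains and damps signalling from the receptors, and is on chromosome 10 (19000910 to 19015657, minus strand). The DMSO libraries held 5.69, 11.5 and 9.09 CPM and the AA libraries 25.6, 33.8 and 41.6 CPM, with no overlap. The change was 1.85 on the log2 scale (SE 0.26, limma adjusted p = 0.000592).

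Nfkbia encodes IkB-alpha, the inhibitor that is destroyed and made again in canonical signalling, and is on chromosome 12 (55489410 to 55492647, minus strand). Its DMSO values were 9.33, 22.1 and 10.3 CPM and its AA values 35.4, 48.05 and 55.9 CPM. DMSO replicate 2 stood well above its group, and every AA library exceeded it. Nfkbia rose by 1.74 on the log2 scale (SE 0.29, limma adjusted p = 0.00158). When genes of any level were tested, the adjusted p was 0.0865 for Nfkbia and 0.0515 for Tnfaip3; the other 17 alternatives called both.

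The remaining inhibitors changed less. Nfkbib encodes IkB-beta, a relative of IkB-alpha with slower turnover, and is on chromosome 7 (28758251 to 28767512, minus strand). It measured 12.8, 14.2 and 11.8 CPM under DMSO and 22.8, 21.7 and 22.5 CPM under AA, and the values of each group lay close together. Nfkbib rose by 0.75 on the log2 scale (SE 0.17, limma adjusted p = 0.008699), or 0.54 relative to all genes. The adjusted p was 0.0529 after quantile normalization and 0.0559 in the library-set fit. The gene shares 778 bases with Sirt2 on the opposite strand, a gene at 58.5 to 74.3 CPM, and without the strand setting reads of the pair there cannot be told apart.

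Nfkbie encodes IkB-epsilon, another inhibitor that NF-kB induces, and is on chromosome 17 (45555703 to 45563169, plus strand). The DMSO libraries held 1.97, 4.27 and 5.14 CPM and the AA libraries 6.09, 7.69 and 8.26 CPM. The AA values began just above the highest DMSO value, and the DMSO values themselves spread widely. Nfkbie had log2 fold change 0.86 (SE 0.30, limma adjusted p = 0.0485), at the edge of the threshold. Its call was lost in 13 of 18 alternatives, including the 3 other scalings and the library-set fit (0.43, adjusted p = 0.522).

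**Figure D3:**
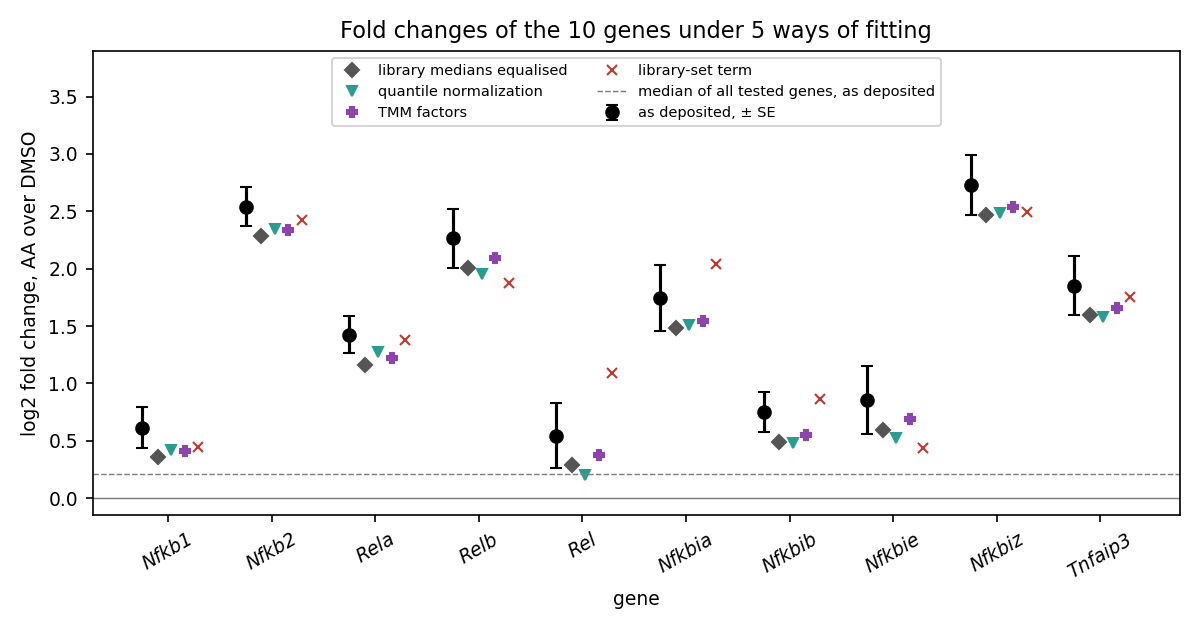
Log2 fold change of AA over DMSO for each gene as deposited (black, with SE), after 3 other scalings of the libraries and in the library-set fit; the dashed line is the median of all tested genes (0.21). All points lie above 0, and those of Nfkb1, Nfkbib and Nfkbie lie below those of Nfkb2, Rela, Relb, Nfkbia, Nfkbiz and Tnfaip3.

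Levels of different genes were compared as CPM per kb of exonic length. Under DMSO, Rela led the subunits with 11.97 ± 2.14 CPM per kb, followed by Nfkb2 (3.03 ± 0.496) and Nfkb1 (2.73 ± 0.4098), then by Relb (0.729 ± 0.274) and Rel (0.412 ± 0.161). The SD ranges overlapped within each of these neighbouring pairs. Compared within libraries, Nfkb2 was above Nfkb1 in every DMSO library, and Relb was above Rel in DMSO replicates 2 and 3 only. Under AA the order was Rela (32.4 ± 3.09), Nfkb2 (18.6 ± 2.14), Relb (4.38 ± 0.527) and Nfkb1 (4.25 ± 0.777), the last pair within their spread, with Rel lowest at 0.636 ± 0.0341 CPM per kb. The place of Nfkb1 depends on the length used, since its annotated exons sum to 12061 bases while its longest transcript has 4149. Per kb of longest transcript, Nfkb1 stood at 7.95 ± 1.19 and Nfkb2 at 3.61 ± 0.591 CPM under DMSO, and at 12.3 ± 2.26 and 22.1 ± 2.55 CPM under AA.

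Within the subunits, the shares of Nfkb2 and Relb were larger under AA. Of the summed level per kb of the 5 subunits, Nfkb2 made up 15.96, 15.7 and 16.5% under DMSO and 32.3, 28.99 and 31.3% under AA. Every AA library exceeded every DMSO library, by a mean of 14.8 percentage points. Relb had 3.81 ± 1.11% and 7.27 ± 0.348%, Rela 63.3 ± 1.699% and 53.8 ± 0.856%, and Nfkb1 14.5 ± 1.09% and 7.02 ± 0.767% (DMSO and AA, SD). The sizes depend on the length used: per kb of longest transcript Rela had 51.3 ± 2.14% and 47.6 ± 0.684% and Nfkb1 30.2 ± 1.84% and 15.97 ± 1.59%. With no length scaling Rela had 40.98 ± 1.897% and 38.7 ± 0.626% and Nfkb1 36.9 ± 2.11% and 19.8 ± 1.97%. None of these 4 shares overlapped between groups. With exonic length each had an exact two-sided permutation p = 0.1, the smallest that 3 against 3 libraries allow (0.143 adjusted over the 10 shares computed), so the design cannot reach 0.05 here. Rel had 2.25 ± 1.04% and 1.07 ± 0.144%, with overlap (exact permutation p = 0.2).

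Among the inhibitors Nfkbia had the highest mean level per kb in both groups, 8.64 ± 4.396 CPM per kb under DMSO and 28.8 ± 6.41 under AA. Under DMSO Nfkbib came next (5.95 ± 0.5599), within the spread of Nfkbia, and it was above Nfkbia in DMSO replicate 1. Nfkbiz (1.73 ± 0.507), Nfkbie (1.25 ± 0.538) and Tnfaip3 (1.21 ± 0.402) stood lower, with SD ranges that overlapped. Compared within libraries, Nfkbiz was above Nfkbie and Tnfaip3 in every DMSO library. Under AA Nfkbiz (12.6 ± 4.08) and Nfkbib (10.3 ± 0.279) stood together behind Nfkbia, followed by Tnfaip3 (4.66 ± 1.11) and Nfkbie (2.41 ± 0.3695). This too depends on the length used. Per kb of longest transcript Nfkbiz had 15.4 ± 4.98 and Nfkbib 10.8 ± 0.293 CPM under AA, and Nfkbiz was above Nfkbib in every AA library. Of the summed level of the 5 inhibitors per kb of exonic length, Nfkbiz held 8.01, 8.03 and 11.96% under DMSO and 21.3, 17.97 and 24.5% under AA. Nfkbib held 41.3, 25.9 and 32.3% and 21.8, 17.4 and 14.6%. Nfkbie held 4.53, 5.55 and 10.04% and 4.14, 4.40 and 3.83%. None of these shares overlapped between groups, that of Nfkbiz being higher and those of Nfkbib and Nfkbie lower under AA. Each had an exact permutation p = 0.1, the smallest possible here (0.143 adjusted over the 10 shares computed). Tnfaip3 held 6.43 ± 0.987% under DMSO and 7.88 ± 0.469% under AA, with overlap (exact permutation p = 0.2). The share of Nfkbia was 44.4 ± 8.64% under DMSO and 48.8 ± 3.28% under AA, with overlap (exact permutation p = 0.5).

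**Figure D4:**
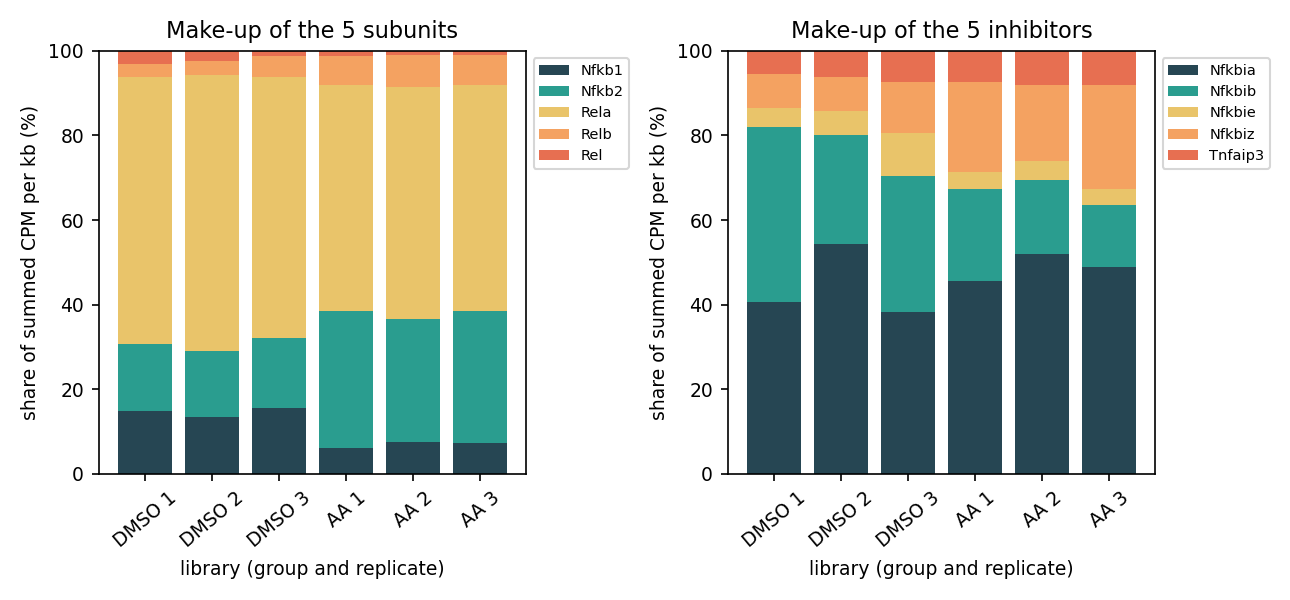
Each bar is a library, divided by the share of each gene in the summed CPM per kb of exonic length (%), with subunits on the left and inhibitors on the right. Nfkb2 takes 15.96, 15.7 and 16.5% of the subunit bars of DMSO and 32.3, 28.99 and 31.3% of those of AA.

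Ratios between members within a library do not change when the whole library is multiplied by a factor, but quantile normalization can change them. In all, 7 pairs were taken, chosen after the values were seen. The ratio of Nfkb2 to Nfkb1 (CPM over CPM) was 0.4101, 0.446 and 0.405 under DMSO and 1.996, 1.45 and 1.62 under AA. Nfkb1 thus had more reads in every DMSO library and Nfkb2 in every AA library, a difference of 2.00 on the log2 scale. Relb to Rela was 0.0589, 0.0666 and 0.104 under DMSO and 0.164, 0.176 and 0.173 under AA, and Rela to Nfkb1 was 1.09, 1.24 and 1.02 and 2.21, 1.84 and 1.84. Neither overlapped between groups, nor did Nfkbiz to Nfkbia, and each of these 4 ratios had an exact permutation p = 0.1 (0.175 adjusted over the 7 pairs). Nfkbia to Rela, the inhibitor against the subunit it holds, was 0.313, 0.514 and 0.275 under DMSO and 0.3896, 0.4903 and 0.509 under AA. Those groups overlapped, with a log2 difference of 0.38 (exact permutation p = 0.4). Nfkbia to Nfkbib and Tnfaip3 to Nfkbia also overlapped, with log2 differences of 1.03 and 0.15 (exact permutation p = 0.2 and 0.6).

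The rest of the pathway was read from 6 lists without the members, written from general knowledge but with earlier results of these data known, so their counts are a description. Of their 134 genes, 108 were tested: 50 were higher, 4 lower and 54 did not pass, a share of 46.3% higher beside 22.3% of all tested genes. No DMSO library reached 1 CPM for 6 of them, and without these 45 of 102 were higher. Those 102 still include genes that reached 1 CPM in only some DMSO libraries and needed AA values to pass. With library medians equalised 38 were higher and 9 lower, beside 1606 higher and 2422 lower of all 14311 tested genes. The counts with equalised medians given below for each list have that same background. In the library-set fit the median log2 fold change of these genes was 0.61, beside 0.19 for all tested genes. Fewer of all tested genes were called in that fit than in the main one.

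Few ligand genes were expressed: 4 of 13 passed the filter, 3 of these were higher and 0 lower. Tnf, the cytokine best known for switching on the canonical route, had 6, 0 and 0 reads under DMSO and 20, 22 and 28 reads under AA. Its AA level was low, at 1.503, 1.23 and 2.01 CPM. Tnf was under 1 CPM in every DMSO library and passed the filter through its AA values alone, so it could not have been called lower; without it, 2 of 3 tested ligands were higher. Tnfsf12, which encodes the ligand TWEAK, went from 10.4 ± 1.095 to 21.5 ± 0.648 CPM, and Il33, an alarmin, from 5.12 ± 0.775 to 13.5 ± 4.43 CPM. In the library-set fit 0 ligands were called. Il1b, the interleukin 1 beta gene, stayed under 1 CPM in all 6 libraries and was not tested.

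Of 16 tested receptors, 4 were higher, 0 lower and 12 not called, and the median change on the log2 scale was 0.30 (library medians equalised: 3 higher, 1 lower). Tnfrsf1a, the main receptor of tumour necrosis factor, measured 31.9, 37.9 and 32.5 CPM under DMSO and 86.9, 89.3 and 76.5 CPM under AA. The groups were clearly apart (log2 fold change 1.28, SE 0.14, limma adjusted p = 0.000138). Tnfrsf12a, the receptor of TWEAK, rose by 3.25 on the log2 scale, Tnfrsf1b, the other receptor of tumour necrosis factor, by 1.64, and Tlr2, a receptor of bacterial lipoproteins, by 0.86. The call of Tlr2 was lost in 11 of 17 alternatives that tested it.

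Adaptors carry the signal from receptors to the kinases. Of 24 tested, 10 were higher, 1 lower and 13 not called. Equalised library medians gave 5 higher and 2 lower, the library-set fit 3 and 0. Myd88, the adaptor of interleukin 1 and Toll-like receptors, went from 10.3 ± 1.77 to 25.5 ± 3.903 CPM (log2 fold change 1.24), and Bcl10, Tirap and Traf2 rose by 1.09, 1.15 and 0.88 on that scale. Traf5 was the lower gene, named here with its values known, at 184, 155 and 103 CPM under DMSO and 101, 79.7 and 104 CPM under AA. Its groups overlapped, and its call (log2 fold change -0.60, limma adjusted p = 0.0427) was lost in 9 of 18 alternatives.

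The kinase list had 4 higher, 0 lower and 8 genes that did not pass among 12 tested (2 higher and 1 lower with equalised medians, 2 and 0 in the library-set fit). Map3k14, which encodes NIK, measured 11.01, 15.4 and 17.98 CPM under DMSO and 38.1, 35.98 and 40.6 CPM under AA. All AA values were far above all DMSO values, with log2 fold change 1.34 (SE 0.19, limma adjusted p = 0.000770). Within the canonical kinase complex, the regulatory subunit gene Ikbkg rose from 50.9 ± 5.26 to 102 ± 10.6 CPM (log2 fold change 0.99, limma adjusted p = 0.000709). The catalytic subunit genes did not pass: Chuk had 258 ± 52.1 and 228 ± 8.46 CPM (log2 fold change -0.16, limma adjusted p = 0.457), and Ikbkb 116 ± 23.8 and 154 ± 16.1 CPM (0.42, adjusted p = 0.0767), DMSO first. Tbk1 and Map3k8, kinases that also feed into NF-kB signalling, rose by 0.54 and 0.98 but lost their calls in 9 of 18 and 8 of 17 alternatives.

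Other regulators were divided, with 6 of 20 tested genes higher, 3 lower and 11 that did not pass; equalised library medians gave 6 and 5, the library-set fit 4 and 0. Tollip, which restrains interleukin 1 and Toll-like receptor signalling, measured 64.4, 63.98 and 67.4 CPM under DMSO and 122, 119.7 and 131 CPM under AA. Both groups of Tollip were even and lay far apart. N4bp1 rose by 0.94 on the log2 scale, the deubiquitinase gene Otud7b by 0.81 and Bcl3, a nuclear IkB relative, by 1.30. The 3 lower genes, also named with their values known, were Commd1 (log2 fold change -0.75) and the related pair Btrc (-0.65) and Fbxw11 (-0.41), whose proteins bring marked IkB to its ubiquitin ligase. Their calls were lost in 6 of 18, 4 of 18 and 9 of 18 alternatives.

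Among genes known as NF-kB targets, 27 of 38 tested were higher, 0 lower and 11 not called, and the median change on the log2 scale was 1.08 (22 higher with equalised medians, 19 in the library-set fit). Of the tested targets, 5 (Cxcl2, Gadd45b, Lcn2, Ptgs2 and Tnf) were under 1 CPM in every DMSO library and passed the filter through AA alone. Without them 22 of 33 were higher. Those 33 still include genes that reached 1 CPM in only some DMSO libraries and needed AA values to pass. Among these, Cxcl1, Cxcl10, Lif and Psmb9 were called higher, and Cd83 and Saa3 were not called. The share is therefore not free of the filter. Many targets also respond to other factors, and Birc3, Traf1, Tnf, Il1b, Bcl3, Tnip1 and Zc3h12a stand on a list above as well. Cxcl1, a chemokine that draws neutrophils, measured 1.17, 2.15 and 0.877 CPM under DMSO and 19.7, 38.8 and 65.2 CPM under AA (log2 fold change 4.02, SE 0.38, limma adjusted p = 5.39e-05). Its AA values differed widely among themselves and all lay far above DMSO.

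Icam1, an adhesion molecule for leukocytes, measured 12.1, 19.5 and 12.9 CPM under DMSO and 60.6, 78.8 and 92.9 CPM under AA, a log2 fold change of 2.32 (SE 0.21). Like Nfkbia, it was highest among DMSO libraries in replicate 2 and among AA libraries in replicate 3. C3, the central complement component, rose by 3.70, Junb, an AP-1 subunit, by 2.89, and the chemokine Cxcl10 by 2.53 on the log2 scale. Vcam1, another adhesion molecule, rose by 0.91, and its call was lost in 8 of 18 alternatives. A pair of cytokine genes stayed near the limit of detection and was not tested. Il6 had 0, 0 and 0 reads under DMSO and 0, 6 and 0 under AA, and Ccl2 had 0, 5 and 0 and 1, 12 and 13. A count of 0 allows up to 0.126, 0.0964 and 0.188 CPM in DMSO replicates 1 to 3, counting error only.

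**Figure D5:**
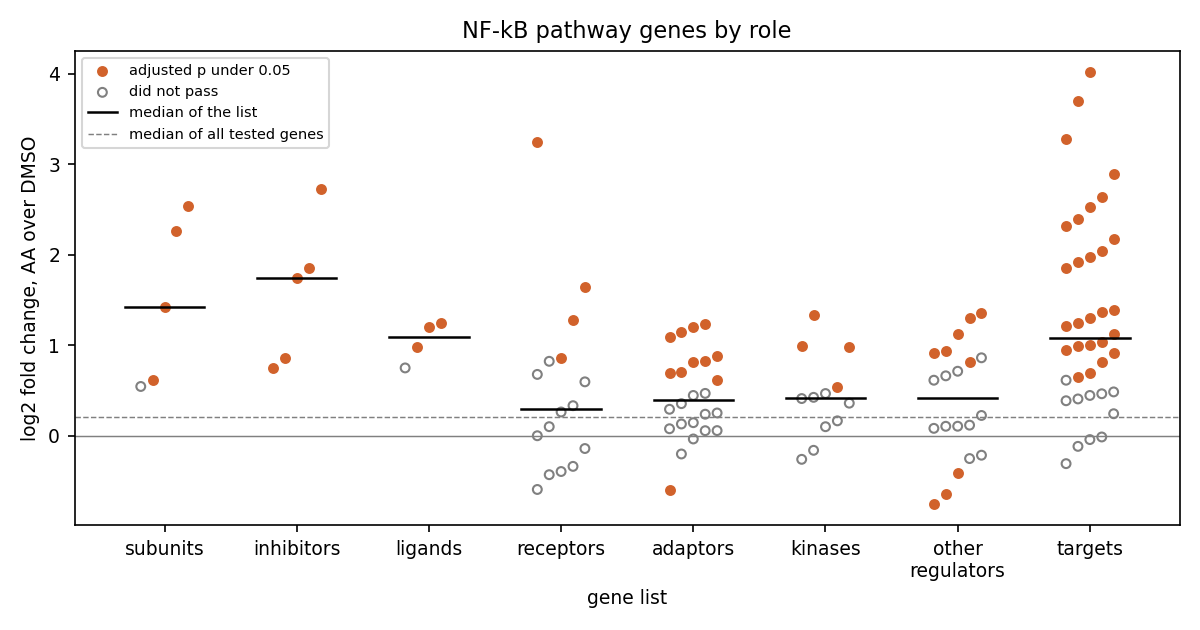
Each point is a tested gene (y axis: log2 fold change of AA over DMSO), grouped by role and filled where it was called; bars are list medians and the dashed line is the median of all tested genes (0.21). The medians are 1.42 for subunits, 1.74 for inhibitors, 1.09 for ligands and 1.08 for targets, against 0.30 for receptors, 0.40 for adaptors, 0.42 for kinases and 0.42 for other regulators.

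NF-kB genes are also active in leukocytes and endothelium, and markers of these and other cells were read in the same libraries. As background for the counts below, 22.3% of all tested genes were called higher, and 33.4% had every AA value above every DMSO value. Of 12 leukocyte markers 9 were tested and 3 were higher (Cd68, Lyz2 and Cd74); their sum was 215 to 324 CPM under DMSO and 229 to 303 CPM under AA, with overlap. Csf1r made up most of that sum, at 159, 253 and 202 CPM under DMSO and 172, 111 and 151 CPM under AA. The other 11 leukocyte markers summed to 55.99, 71.04 and 58.8 CPM under DMSO and 131, 118 and 129.5 CPM under AA, so without Csf1r every AA library was above every DMSO library. Cd68, a macrophage marker, measured 1.17, 1.25 and 0.376 CPM under DMSO and 20.1, 26.6 and 38.4 CPM under AA. Of these 11 markers, Cd68 and Cd74 rose most in CPM. Cd74, Lyz2, Laptm5 and Ptprc also had every AA value above every DMSO value. The groups overlapped for Adgre1, Itgam, Csf1r, Tyrobp, Cd3e, Ms4a1 and S100a8. Of these, Tyrobp, Cd3e and S100a8 fell under the filter and were not tested, and S100a8 was at 0 in every library but AA replicate 2. Adgre1 and Itgam were low, at no more than 2.94 and 4.66 CPM, so their overlap does not show that they stayed level. Ptprc, the pan-leukocyte marker CD45, measured 10.2, 8.25 and 8.46 CPM under DMSO and 10.4, 11.4 and 12.2 CPM under AA. Of 9 endothelial markers 3 were higher, and the sum was 235 to 356 CPM under DMSO and 367 to 425 CPM under AA. Markers were higher for 2 of 6 stromal genes, with a sum of 74.6 to 113 CPM under DMSO and 139 to 157 CPM under AA. They were higher for 3 of 5 principal cell genes, with 16.9 to 34.98 CPM under DMSO and 52.9 to 98.6 CPM under AA. Thick limb markers were higher for 2 of 5, with 168 to 471 CPM under DMSO and 309 to 1288 CPM under AA. Intercalated cell markers were higher for 1 of 5, with 7.804 to 8.898 CPM under DMSO and 10.7 to 26.3 CPM under AA. Podocyte markers (4 tested) and distal convoluted tubule markers (3 of 4 tested) had 0 called, with sums of 37.8 to 65.9 CPM under DMSO and 55.4 to 93.3 CPM under AA for the former and 54.7 to 71.6 CPM under DMSO and 39.5 to 103 CPM under AA for the latter. No marker of these lists was at 0 in all 6 libraries, and the part of these cells in the changes of the NF-kB genes was not tested.

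For the subunit and the inhibitor with the smallest adjusted p, the 5 genes with the most similar pattern were taken by Pearson's r of log2(CPM + 1) over the 6 libraries, as a description. For Nfkb2 they were Maff (r = 0.999), Rec8, Psrc1, Pm20d2 and Slc20a1 (r = 0.997). For Nfkbiz they were Mafk (r = 0.998), Poldip3, Nop2, Ctc1 and Slc20a1 (r = 0.998). The 6 points share the division into AA and DMSO, and 996 tested genes (6.97%) had an r over 0.95 with Nfkb2.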

How the data were processed

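RNA of 6 mouse proximal tubule libraries (3 AA, 3 DMSO) was analysed. Per the labels' protocols, the RNA came from a PicoPure extraction and the TruSeq Stranded mRNA chemistry was used. Per the submitters' processing notes, the tools were bcl2fastq 2.19 and kallisto (no version or role) and the build was mm10. The step from transcripts to genes is not given in the sources used here, nor is the annotation or strand setting. A single table of 32544 genes, deposited by the authors, holds log10 values. These are log10(CPM + 1), read from the values: undone, all columns have the CPM total, and 100% of values give whole reads within 0.1 read. The design had assumed logged CPM without naming a base. Symbols turned into dates numbered 27.

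Values were logged again as log2(CPM + 1). Genes reaching 1 CPM in 3 or more libraries were fitted with limma 3.58.1 (variance trend, two-sided, Benjamini-Hochberg) in R 4.3.3, which was tested on simulated data; SE is the moderated standard error. Shares and ratios were tested by exact two-sided permutation over libraries. Positions and lengths came from GENCODE M21 and promoters from RefSeq; the kappaB consensus was chosen after the sequences had been seen. The members were chosen by symbol and not by their values, and the lists were written from general knowledge. Both were chosen with earlier results of these data known. Genes named are the members, up to 4 called genes per list by adjusted p, and 12 genes fixed by name. Alternatives were 3 other scalings (equalised medians, quantiles, TMM factors in an own implementation), 2 other filters, 2 other pseudocounts, 2 variance models, voom on recovered reads, a replicate block, the library-set fit and leaving out each library.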

Additional observations from a re-analysis of the deposited data

How the results depend on the processing

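With no filter on low values, 1375 genes, 5 members and 28 genes of the 6 other lists were called, against 4426, 9 and 54 as reported. That fit estimates its variance trend from all 32544 genes and also adjusts over them. The library-set fit called 1481, 6 and 30. Leaving out a library gave 2645 to 3980 genes, the fewest without AA replicate 2, 7 to 9 members and 41 to 51 genes of the other lists. Scaling moved the split of called genes from 3187 higher and 1239 lower to 1606 higher and 2422 lower with equalised medians, 1822 higher and 2077 lower with quantiles and 1931 higher and 2067 lower with TMM factors. The members called were then 7, 6 and 7, all higher. Over the 18 alternatives, Nfkb2, Rela, Relb and Nfkbiz were called in 18, Nfkbia and Tnfaip3 in 17, Nfkbib in 16, Nfkb1 in 9, Nfkbie in 5 and Rel in 0, and no log2 fold change of a member fell below 0. Voom on recovered reads called 4366 genes and 9 members. Without length scaling the share of Nfkbia was 28.02 ± 6.77% under DMSO and 26.8 ± 2.36% under AA, the opposite direction. Among the low members, Rel rested on 27 to 120 reads per library, and the 95% counting interval of DMSO replicate 3 (1.11 to 2.46 CPM) lay below those of DMSO replicates 1 and 2 (2.95 to 4.54 and 3.195 to 4.61 CPM).

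The groups share replicate numbers, and no label says whether same-numbered libraries belong together. Their deviations from the group means were not positively correlated (r = -0.109, -0.156 and -0.015). With 3 libraries per group this cannot settle whether they were handled together, and pairing is left unknown. With a replicate block 3813 genes, 9 members and 50 genes of the other lists were called.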
